A study of Mus musculus with 12 samples.

Results

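The genes described here are 7 core members of the cGAS-STING pathway, taken by symbol from the 54532 rows of the deposited gene table of mouse colon. They are Cgas (listed under its older symbol Mb21d1) and Ddx41, which code for sensors of DNA, Tmem173 (also Sting1), the gene of STING, Tbk1 and Ikbke, which code for kinases, Irf3, which codes for a transcription factor, and Enpp1, which codes for a hydrolase of the messenger cGAMP. The members were set by their place in the pathway, with earlier results of these data known. All 7 passed the filter on low values, so 7 of the 24102 genes tested are members. Whole colon RNA of 12 adult C57BL/6N mice was sequenced, 1 library per mouse, with 3 libraries in each of 4 groups. Mice of all 4 groups carried a floxed Tmem173 gene and had been injected with tamoxifen 5 times. The Tmem173fl/fl mice had no Cre. The Tmem173fl/flLyz2-Creert2 mice, called Tmem173iΔmye, carried a tamoxifen-inducible Cre driven from Lyz2, the lysozyme gene of macrophages, monocytes and neutrophils. In each genotype 1 group was untreated and 1 had drunk dextran sulfate sodium (DSS) for 7 days, which injures the colon epithelium and gives acute colitis. The colitic Tmem173iΔmye mice are numbered 1, 2 and 5, and the others 1 to 3.

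In this pathway cGAS binds double-stranded DNA that lies in the cytosol and makes the cyclic dinucleotide cGAMP. STING, a membrane protein of the endoplasmic reticulum, binds cGAMP, moves to the Golgi and recruits the kinase TBK1, which phosphorylates IRF3. IRF3 then enters the nucleus and switches on type I interferon and a group of interferon-stimulated genes, while STING also feeds NF-κB. In the gut the pathway is known in macrophages, dendritic cells, endothelium and other cell types as well as in the epithelium, and it is studied in colitis because injured epithelium releases DNA. The Cre of these mice removes Tmem173 from Lyz2-expressing cells, and RNA of every other cell type is in the same library.

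Library totals ran from 13823237 to 18718915 counts. Levels of 1 gene across libraries are given as CPM (counts scaled to a common library size by TMM), and levels of different genes are set side by side as FPKM, which is per length of the gene. Changes are log2 fold changes from edgeR's quasi-likelihood test, with a gene called where its adjusted p (Benjamini-Hochberg, over all 24102 genes) was under 0.05. Markers of colon epithelium were high in every library, with a summed level of 3590 to 8355 FPKM. The tissue also held other cells, and the markers of some of them moved with the groups, while the summed markers of T cells, of B and plasma cells and of dendritic cells overlapped between all groups. Single dendritic cell markers did move, with 3 of 6 called higher and 1 lower with DSS in Tmem173fl/fl mice (19.5% and 16% of all genes). The summed level of monocyte and macrophage markers was 40.3 to 53.5 FPKM in the 6 untreated libraries, 131 to 194 FPKM in colitic Tmem173fl/fl mice and 58.3 to 131 FPKM in colitic Tmem173iΔmye mice. That of neutrophil markers was 41.05 to 105 FPKM, 442 to 750 FPKM and 204 to 304 FPKM in the same order. In whole tissue a fall of a gene in each cell and a fall in the number of the cells that express it cannot be told apart. Genes of pancreatic acinar cells summed to between 0 and 6818 FPKM, high in some libraries of every group, and 3 libraries held Xist reads in number (untreated Tmem173fl/fl 3, untreated Tmem173iΔmye 3 and colitic Tmem173iΔmye 5). These 3 had 0 counts of the Y-linked genes Ddx3y, Eif2s3y, Kdm5d and Uty, the pattern of female mice, while the others had reads of each. Colitic Tmem173fl/fl mice were the only group without such a library, so sex was not balanced between the groups. The members' calls that change without those libraries or with the acinar level as a covariate are named where they are given. In Tmem173fl/fl mice the acinar sum was 6562, 3177 and 396 FPKM in colitic and 0, 0 and 1854 FPKM in untreated libraries. The acinar level thus went partly with DSS there, and a fit with this covariate cannot fully tell the 2 apart.

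The promoters of the members were read beside a gene that IRF3 switches on, since Cgas is itself known as an interferon-stimulated gene. RefSeq promoters (GRCm38.p6, 250 bases before to 50 after the start) matched 6 of the 7 members, all but Tmem173. Those of Cgas and Enpp1, which moved in opposite directions in colitis, and that of Ifit1, an IRF3 target, are shown 5′ to 3′ on the strand of the gene. Cgas lies at chr9:78443188-78443487 on the minus strand, Enpp1 at chr10:24712110-24712409 on the minus strand and Ifit1 at chr19:34640639-34640938 on the plus strand. Capitals mark matches to GAAANNGAAA on either strand, the core of the interferon-stimulated response element.
Cgas: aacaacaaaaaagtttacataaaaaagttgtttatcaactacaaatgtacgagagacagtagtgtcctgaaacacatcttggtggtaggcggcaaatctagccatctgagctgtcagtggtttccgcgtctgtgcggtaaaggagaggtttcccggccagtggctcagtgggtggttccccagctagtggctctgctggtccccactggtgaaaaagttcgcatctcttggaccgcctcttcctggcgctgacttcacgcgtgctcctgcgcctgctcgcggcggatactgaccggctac
Enpp1: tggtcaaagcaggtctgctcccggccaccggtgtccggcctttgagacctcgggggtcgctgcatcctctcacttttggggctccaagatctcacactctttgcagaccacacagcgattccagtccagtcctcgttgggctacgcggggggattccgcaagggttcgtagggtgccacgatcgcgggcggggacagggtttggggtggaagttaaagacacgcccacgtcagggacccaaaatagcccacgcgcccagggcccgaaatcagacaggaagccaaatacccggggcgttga
Ifit1: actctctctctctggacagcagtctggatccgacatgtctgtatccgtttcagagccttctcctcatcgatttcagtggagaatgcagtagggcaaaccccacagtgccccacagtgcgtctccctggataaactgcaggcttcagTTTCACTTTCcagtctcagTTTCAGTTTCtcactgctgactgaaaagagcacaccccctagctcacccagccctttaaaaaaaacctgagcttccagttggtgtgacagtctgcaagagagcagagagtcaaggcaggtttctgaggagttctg
GAAANNGAAA was found in 3.44% of 32851 mouse promoters of that length. The Ifit1 promoter held 2 matches, starting 104 and 85 bases before the transcription start, and these letters were in none of the 6 member promoters. Of 3 other promoters read, not shown, that of Isg15 held 3 matches and those of Irf7 and Samhd1 held 0, so other genes described below lack them too. TTCNNNGAA, the palindrome of STAT-binding elements, was found in 8.3% of all promoters and in none of the 6.

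Tmem173 was examined first, because it is the targeted gene. It lies on chromosome 18 from 35733678 to 35740554 on the minus strand (ENSMUSG00000024349), a protein-coding gene with no exon shared with another gene in GENCODE M21. In untreated Tmem173fl/fl mice 1, 2 and 3 its level was 24.5, 14.4 and 22.9 CPM. In untreated Tmem173iΔmye mice it was 17.2, 14.6 and 21.3 CPM, so the genotypes overlapped. The difference between them was -0.21 (log2, SE 0.22, edgeR adjusted p = 1), with a 95% interval from -0.69 to 0.27. In colitic Tmem173fl/fl mice the level was 42.4, 44.0 and 37.7 CPM. In colitic Tmem173iΔmye mice 1, 2 and 5 it was 47.8, 23.8 and 31.1 CPM. Of these, mouse 1 was above every Tmem173fl/fl library and mice 2 and 5 were below every colitic one. The genotype difference in colitis was -0.28 (SE 0.26, adjusted p = 0.602, 95% interval -0.88 to 0.33), and an exact two-sided permutation test of these 3 against 3 libraries gave p = 0.4. The labelled deletion was therefore not visible as a called fall of Tmem173 in whole colon, and counts over the whole gene do not show whether single exons were lost. Lyz2, the gene that carries the Cre, was 150, 152 and 277 CPM in untreated Tmem173fl/fl mice and 94.4, 76.4 and 115 CPM in untreated Tmem173iΔmye mice, which do not overlap, with a difference of -1.01 (SE 0.23) and an edgeR adjusted p of 1. Of the alternatives run, Lyz2 was called only without the filter on low values (edgeR adjusted p = 0.000146) and with replicate number as a block (0.001255). In colitic mice it was 477, 505 and 336 CPM in Tmem173fl/fl and 319, 231 and 357 CPM in Tmem173iΔmye mice. These overlap, and the difference of -0.54 was not called.

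Colitis went with more Tmem173 mRNA. In Tmem173fl/fl mice Tmem173 rose from 20.6 ± 5.46 to 41.4 ± 3.30 CPM (SD, n = 3 each), a log2 change of 1.07 (SE 0.21, edgeR adjusted p = 0.00255), and the lowest colitic library lay above the highest untreated one. In Tmem173iΔmye mice the means were 17.7 ± 3.4 and 34.2 ± 12.3 CPM, the groups again did not overlap, and the log2 change of 0.95 (SE 0.28) had an adjusted p of 0.135. The difference between the genotypes in this change was -0.06 (interaction, SE 0.37, adjusted p = 0.968), with a 95% interval from -0.85 to 0.73. With the acinar level as a covariate the Tmem173fl/fl change was 0.88 with an adjusted p of 0.0659, so that call was lost. The libraries with the most Tmem173 were also those with the most monocyte and macrophage markers. Of the 12 libraries, the 4 with over 130 FPKM of these markers, which are the 3 colitic Tmem173fl/fl libraries and colitic Tmem173iΔmye mouse 1, had 16.6 to 20.7 FPKM of Tmem173. The other 8 had 6.07 to 13.2 FPKM. The same 4 libraries had 304 to 750 FPKM of neutrophil markers, and the other 8 had at most 267 FPKM. That split rests on Ly6g, which made up 230 FPKM of the sum in colitic Tmem173iΔmye mouse 1 and 248 FPKM in mouse 5. S100a8 and S100a9 were lower in mouse 1 (17.8 and 41.7 FPKM) than in mouse 2 (37.1 and 52.9 FPKM). Mmp8 was lower in mouse 1 as well, and Cxcr2 and Csf3r were higher. Of the 6 neutrophil markers 6 were called higher with DSS in Tmem173fl/fl mice (19.5% of all genes) and 5 in Tmem173iΔmye mice (2.17% called in either direction). Between the colitic genotypes 4 were lower in Tmem173iΔmye mice, where 3.11% of all genes were called. With DSS in Tmem173iΔmye mice S100a8, Cxcr2 and Mmp8 were not called without any 1 of the untreated mice (log2 changes 4.61 to 8.93). Between the colitic genotypes S100a8, S100a9 and Mmp8 were not called without any 1 Tmem173fl/fl mouse or with the acinar covariate (log2 differences -3.69 to -2.51). Endothelial markers were likewise 45.9 to 63.4 FPKM in colitic Tmem173fl/fl mice, 18.65 to 35.1 FPKM in colitic Tmem173iΔmye mice and 11.2 to 14.4 FPKM in untreated mice. The part of these cells in the Tmem173 level was not tested.

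**Figure D1:**
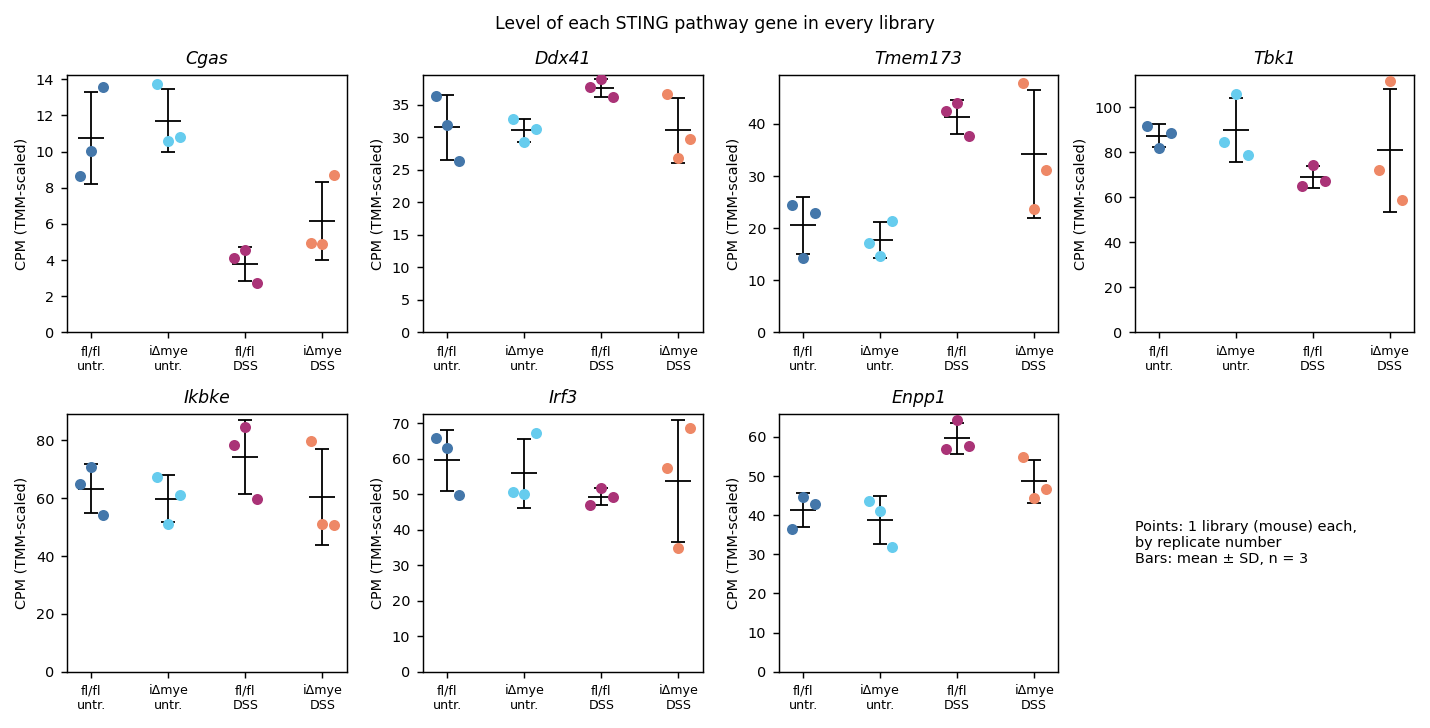
Level of each of the 7 genes (CPM, TMM-scaled, axes from 0) in the 12 libraries, by genotype (fl/fl, Tmem173fl/fl; iΔmye, Tmem173iΔmye) and treatment (untr., untreated), with bars for the mean ± SD of 3 libraries. Cgas is lower and Tmem173 and Enpp1 are higher in every colitic Tmem173fl/fl library than in every untreated one, and the colitic Tmem173iΔmye libraries are spread widely, from 23.8 to 47.8 CPM for Tmem173.

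Across the 7 members, colitis in Tmem173fl/fl mice moved 3, with Tmem173 and Enpp1 higher and Cgas lower, while Ddx41, Tbk1, Ikbke and Irf3 were not called. Of all genes tested, 35.4% were called in that comparison, 19.5% higher and 16% lower, so 3 of 7 is close to the background. With a change of at least 2-fold asked in addition 2 of 7 were called (Cgas and Tmem173), against 22.5% of all genes. The groups did not overlap for 4 members (the called ones and Tbk1), against 49.3% of all genes. In Tmem173iΔmye mice 0 of 7 members were called by edgeR, against 2.17% of all genes. At an unadjusted p under 0.05 there were 2 (Tmem173 and Cgas), against 15.6% of all genes. Cgas, Tmem173 and Enpp1 did not overlap between the groups, where 21.5% of all genes did not. DESeq2 called 1 member in this comparison, Tmem173, at an adjusted p of 0.0379, and without colitic mouse 5 edgeR called 1, Cgas. Between genotypes, 0 of 7 were called in untreated mice (0% of all genes) and 0 of 7 in colitic mice (3.11% of all genes), and 0 had an unadjusted p under 0.05 in either, against 2.99% of all genes in untreated and 20.2% in colitic mice. DESeq2 called 0 there as well. The share of all genes called turned on single libraries. Between colitic genotypes 749 genes were called, against 27, 204 and 123 without Tmem173fl/fl mouse 1, 2 or 3, 46 without Tmem173iΔmye mouse 2 and 2002 without Tmem173iΔmye mouse 1. With DSS in Tmem173iΔmye mice 522 were called, against 51 to 72 without any 1 of the untreated mice, 239 without colitic mouse 1 and 1743 without colitic mouse 5. In colitic mice Cgas and Enpp1 did not overlap between genotypes, against 26.8% of all genes, and in untreated mice no member was free of overlap, against 7.35%. The interaction of genotype and DSS called 0 of 7 (2.65% of all genes), with 0 at an unadjusted p under 0.05 (18.1% of all genes) and adjusted p from 0.503 to 0.968. It called 638 of all genes, and 268 to 398 without any 1 of the 6 untreated mice or colitic Tmem173fl/fl mouse 1 or 2, and 1982 without colitic Tmem173iΔmye mouse 1. The comparisons share libraries, so their values are not independent of each other. The median change of all genes lay between -0.002 and 0.042 in these comparisons. With 3 libraries against 3 the smallest exact permutation p for 1 gene is 0.1, and the groups that do not overlap are those that reach it.

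**Figure D2:**
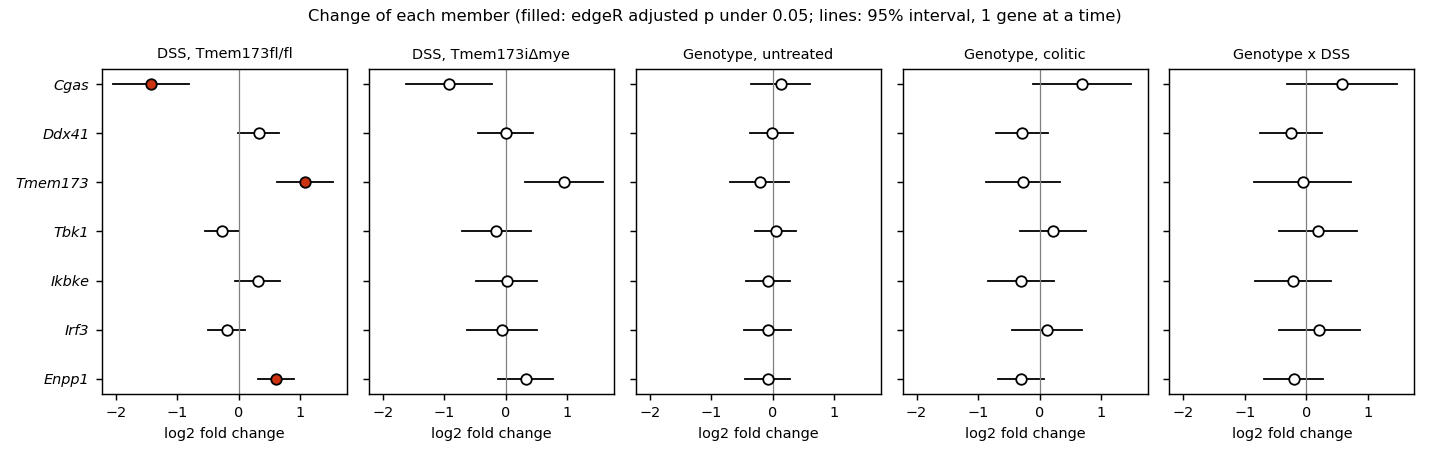
Change of each member (log2 fold change, point, with its 95% interval) in the 4 comparisons and in the interaction of genotype and DSS. Filled points mark an edgeR adjusted p under 0.05 and are seen only for Cgas (-1.43), Tmem173 (1.07) and Enpp1 (0.60) in the DSS comparison of Tmem173fl/fl mice.

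The DNA sensor gene Cgas showed the largest change among the members with DSS in Tmem173fl/fl mice. It lies on chromosome 9 from 78430526 to 78443237 on the minus strand (ENSMUSG00000032344). In untreated Tmem173fl/fl mice its level was 8.63, 10.02 and 13.6 CPM, and in colitic ones 4.12, 4.54 and 2.72 CPM. The colitic libraries were all below the untreated ones, at a mean of 3.80 ± 0.952 against 10.7 ± 2.56 CPM, and Cgas fell by 1.43 on the log2 scale (SE 0.28, edgeR adjusted p = 0.00285). This call held under each alternative tried, with log2 changes from -1.60 to -1.21 when 1 library was left out. In Tmem173iΔmye mice the level was 13.7, 10.6 and 10.8 CPM untreated and 4.92, 4.92 and 8.68 CPM colitic, again without overlap. There the log2 change was -0.93 (SE 0.32, adjusted p = 0.187). Colitic mouse 5, one of the libraries with Xist reads, was the highest of that group, and without it the log2 change was -1.22. Between colitic genotypes every Tmem173iΔmye library was above every Tmem173fl/fl library, by 0.69 (SE 0.35, adjusted p = 0.317, 95% interval -0.11 to 1.49). Mice 1 and 2, at 4.92 CPM each, lay close to the highest Tmem173fl/fl library (4.54 CPM), and mouse 5 lay farther above, at 8.68 CPM. Cgas was the member with the fewest reads, from 40 to 226 counts per library. Of its 4126 exonic bases 201 (4.87%) are shared with Gm8093 on the opposite strand, and the use of strand in counting is not given in the sources used here. The summed level of epithelial markers was 5882 to 8355 FPKM in untreated and 3590 to 5626 FPKM in colitic Tmem173fl/fl mice, so it too was lower in each colitic library. In colitic Tmem173iΔmye mice 1, 2 and 5 it was 6455, 7114 and 4644 FPKM, so there the mouse with the lowest sum had the most Cgas. The part of epithelium in the Cgas level was not tested.

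Ddx41, which codes for a helicase that binds DNA and has been placed upstream of STING, was steadier. It lies on chromosome 13 from 55530410 to 55536658 on the minus strand (ENSMUSG00000021494). In untreated Tmem173fl/fl mice it was 36.4, 31.9 and 26.4 CPM and in colitic ones 37.8, 38.9 and 36.2 CPM. The log2 change of 0.32 (SE 0.15) had an adjusted p of 0.120, and the groups overlapped by 1 library, untreated mouse 1. In Tmem173iΔmye mice it was 31.1 ± 1.78 CPM untreated and 31.0 ± 5.05 CPM colitic, and the sign of that difference changed with the processing. A part of Ddx41, 467 of 2687 exonic bases (17.4%), is also exon of Gm46416 on the opposite strand, so its counts are uncertain to that extent.

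The kinase genes were not called in any comparison. Tbk1, which codes for the kinase that STING recruits, lies on chromosome 10 from 121546455 to 121586787 on the minus strand (ENSMUSG00000020115). It was 91.6, 81.7 and 88.6 CPM in untreated and 65.1, 74.4 and 67.3 CPM in colitic Tmem173fl/fl mice. These groups did not overlap, and the log2 change of -0.27 (SE 0.12) had an adjusted p of 0.120. In colitic Tmem173iΔmye mice Tbk1 was 72.1, 111.6 and 58.7 CPM, so that mouse 2 was the highest and mouse 5 the lowest of all 12 libraries. Ikbke codes for IKKε, the kinase nearest to TBK1, and lies on chromosome 1 from 131254343 to 131279606 on the minus strand (ENSMUSG00000042349). Its mean was 63.3 ± 8.41 CPM in untreated and 74.2 ± 12.8 CPM in colitic Tmem173fl/fl mice, with overlap (log2 change 0.30, SE 0.16, adjusted p = 0.179). In Tmem173iΔmye mice it was 59.9 ± 8.23 CPM untreated and 60.5 ± 16.6 CPM colitic, where mouse 1 stood at 79.7 CPM and mice 2 and 5 at 51.1 and 50.8 CPM.

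Irf3, the gene of the transcription factor that TBK1 activates, lies on chromosome 7 from 44997648 to 45002848 on the plus strand (ENSMUSG00000003184). It was 65.9, 63.0 and 49.9 CPM in untreated and 46.9, 51.8 and 49.4 CPM in colitic Tmem173fl/fl mice. Untreated mouse 3 lay among the colitic libraries, and the log2 change of -0.20 (SE 0.14) had an adjusted p of 0.291. In Tmem173iΔmye mice it was 50.6, 50.1 and 67.2 CPM untreated and 57.6, 34.9 and 68.7 CPM colitic. The highest library of each of these groups held Xist reads, and in untreated Tmem173fl/fl mice the library with Xist reads was the lowest. Small stretches of exon are shared with genes on the opposite strand, 88 bases (2.56%) with Bcl2l12 for Irf3, and 159 and 65 bases with Gm28914 and Gm28913 for Ikbke.

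Enpp1 codes for the cell surface enzyme that degrades cGAMP outside the cell. It lies on chromosome 10 from 24637914 to 24712159 on the minus strand (ENSMUSG00000037370) and shares no exon with another gene. Its level was 36.4, 44.7 and 42.8 CPM in untreated and 57.0, 64.3 and 57.7 CPM in colitic Tmem173fl/fl mice. It rose with a log2 change of 0.60 (SE 0.13, edgeR adjusted p = 0.0058), every colitic library being above every untreated one. With the acinar covariate the change was 0.53 with an adjusted p of 0.0780. In Tmem173iΔmye mice it was 43.6, 41.1 and 31.9 CPM untreated and 54.9, 44.4 and 46.7 CPM colitic, without overlap, and the log2 change was 0.32 (SE 0.20, adjusted p = 0.490). Colitic Tmem173iΔmye libraries were all below colitic Tmem173fl/fl ones, by -0.30 (SE 0.17, adjusted p = 0.353, 95% interval -0.68 to 0.08). Fibroblast markers were in the same order over the groups. They summed to 660 to 825 FPKM in colitic Tmem173fl/fl mice, 208 to 277 FPKM in colitic Tmem173iΔmye mice and 96.3 to 119.8 FPKM in untreated mice. Summed markers of neutrophils, of endothelium and of enteric glia and neurons had this order too, so it is not particular to fibroblasts. The part of these cells in the Enpp1 level was not tested.

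Per length, Tbk1 and Irf3 had the highest levels of the members in untreated mice and Cgas the lowest. The place of Tmem173 depends on its length, which is 2302 bases in the deposited table and 2741 exonic bases in GENCODE M21, while both lengths are equal for the other 6 members. In untreated Tmem173fl/fl mice the mean levels were 21.8 ± 1.26 FPKM for Tbk1, 16.9 ± 2.34 for Irf3, 11.4 ± 1.77 for Ddx41, 8.72 ± 2.31 for Tmem173, 6.84 ± 0.887 for Ikbke, 3.93 ± 0.420 for Enpp1 and 2.54 ± 0.617 for Cgas (FPKM, SD, n = 3). Single libraries of Ddx41 and Tmem173 overlapped, as did those of Tmem173 and Ikbke. With the GENCODE length Tmem173 was 7.32 ± 1.94 FPKM (5.10 to 8.70 FPKM) and overlapped Ikbke but not Ddx41. By contrast, Tbk1 was above Irf3, Irf3 above Ddx41, Ikbke above Enpp1 and Enpp1 above Cgas in every library of the group. In colitic Tmem173fl/fl mice Tmem173 was 18.2 ± 1.37 FPKM with the deposited length, its range of 16.6 to 19.2 FPKM overlapping that of Tbk1, at 17.8 ± 1.2 FPKM. With the GENCODE length it was 15.2 ± 1.15 FPKM, and its range of 13.9 to 16.2 FPKM lay below every Tbk1 library and overlapped Irf3. Irf3 followed at 14.5 ± 0.690 FPKM and Ddx41 at 14.1 ± 0.459 FPKM, which overlapped each other. Cgas stood last at 0.929 ± 0.230 FPKM. In colitic Tmem173iΔmye mice Tbk1, Irf3 and Tmem173 overlapped, at 20.4 ± 6.97, 15.4 ± 4.87 and 14.7 ± 5.44 FPKM. Set among the 24102 genes tested by the mean FPKM of all libraries, Tbk1 was above 88.8% and Cgas above 48.9%.

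**Figure D3:**
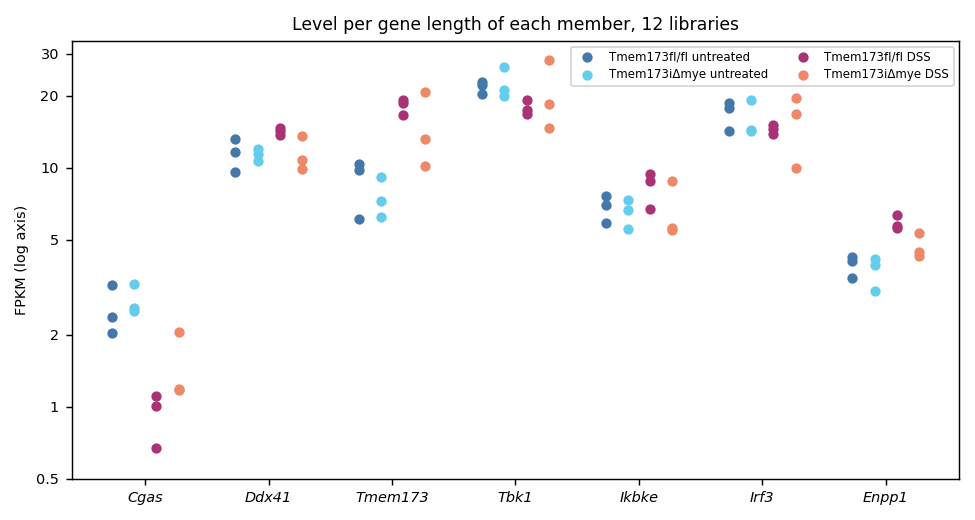
Level per gene length (FPKM, log axis) of each member in the 12 libraries, colored by group. Tmem173 goes from the middle of the order, 6.07 to 10.4 FPKM in untreated Tmem173fl/fl mice, to 16.6 to 19.2 FPKM in colitic ones (deposited gene length), while Cgas goes from 2.03 to 3.23 FPKM down to 0.670 to 1.11 FPKM.

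Because the adaptor and the sensor moved in opposite directions, their ratio was taken in each library, a measure chosen after these values were seen. In FPKM of the deposited lengths there was 5.09, 2.57 and 3.02 times as much Tmem173 as Cgas in untreated Tmem173fl/fl mice and 2.24, 2.47 and 3.54 times as much in untreated Tmem173iΔmye mice. The ratio was 18.5, 17.3 and 24.8 in colitic Tmem173fl/fl mice. In colitic Tmem173iΔmye mice 1, 2 and 5 it was 17.4, 8.67 and 6.42. All 6 colitic libraries were above all 6 untreated ones, which within each genotype follows from the levels of both genes, and colitic Tmem173iΔmye mouse 1 was the only one of its group to reach the Tmem173fl/fl range. The exact permutation test between the colitic genotypes gave p = 0.2.

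The members varied to different degrees within a group. In colitic Tmem173fl/fl mice the coefficient of variation of CPM was 3.68% for Ddx41, 4.94% for Irf3, 6.76% for Enpp1, 7.06% for Tbk1, 7.97% for Tmem173, 17.3% for Ikbke and 25.1% for Cgas. In colitic Tmem173iΔmye mice it was between 11.4% (Enpp1) and 36.0% (Tmem173). For each of the 7 members the colitic Tmem173iΔmye group had the larger coefficient of variation of the pair, as it did for 70.9% of all genes. Mouse 1 of that group had the highest Tmem173, Ikbke, Ddx41 and Enpp1 of its group, mouse 2 the highest Tbk1, and mouse 5 the highest Cgas and Irf3.

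Genes with a pattern most like that of each member were sought among 14557 genes by the root mean square difference of centred log2 CPM over the 12 libraries. For Cgas these were Rrm1, a subunit of ribonucleotide reductase, Atad2, a chromatin protein with an ATPase domain, and Gen1, a nuclease that resolves DNA junctions, with differences of 0.149, 0.165 and 0.171 against a spread of Cgas of 0.747 (SD, log2). For Tmem173 the nearest were Cyp4f17, Tmem8b and Bcl6, a transcriptional repressor, at 0.200 to 0.217 against a spread of 0.609. The other members had smaller spreads, so smaller differences are not closer matches. The nearest gene to Enpp1 was Cblb, a ubiquitin ligase (0.0896 against a spread of 0.292), and the nearest to Ddx41 was Prr14 (0.0692 against 0.1915). For Irf3 it was Kat2a, a histone acetyltransferase (0.0959 against 0.2775), for Ikbke Pank4 (0.0762 against 0.2628) and for Tbk1 Tm7sf3 (0.118 against 0.2765). No member was among the 3 genes nearest to another member.

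The wider pathway was described through 80 genes in 7 lists, of which 77 were tested. In colitic against untreated Tmem173fl/fl mice 11 of 77 were higher and 31 lower, where 19.5% and 16% of all genes were, with a median log2 change of -0.37 against 0.03 for all genes. The lower count of the genes of nucleic acid and nucleotide breakdown is close to these shares. So are the higher counts of STING traffic and of the genes around the kinases. In Tmem173iΔmye mice 0 were higher and 8 lower (median -0.16), where 2.17% of all genes were called and 0.639% were lower. That count was 2 or 3 without any 1 of the untreated Tmem173iΔmye mice or without colitic mouse 1. Upstream of STING, 2 of 7 tested genes of nucleic acid and nucleotide breakdown were lower in colitic Tmem173fl/fl mice. These were Samhd1, which degrades dNTPs (log2 change -1.40), and Dnase1l3, a secreted DNase (-1.19). Dnase1l3 was not called without untreated Tmem173fl/fl mouse 1 or 3 (-1.06 and -1.17) or without colitic mouse 1 (-1.18), nor with the acinar covariate (-1.44, edgeR adjusted p = 0.0804). Among 12 other DNA sensors 4 were lower, Zbp1, a sensor of Z-form nucleic acid (-2.20), Mre11a (-0.70), Aim2, the sensor of the DNA inflammasome (-0.67), and Xrcc5 (-0.63). Mre11a was not called without untreated Tmem173fl/fl mouse 3, which held Xist reads (edgeR adjusted p = 0.0502). The count of sensors was 2 without that mouse and 6 without colitic Tmem173fl/fl mouse 2. In Tmem173iΔmye mice these sensors were not called, with -0.16 for Zbp1 and 0.28 for Aim2. The difference between genotypes in the DSS change was 2.12 for Zbp1 (edgeR adjusted p = 0.0656) and 1.02 for Aim2 (adjusted p = 0.0590).

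Carriers and channels of cGAMP let the messenger pass between cells, where ENPP1 can reach it. Of 10 tested genes of cGAMP transport and hydrolysis, which are 9 carriers and channels and the hydrolase gene Enpp3 (log2 change 0.23), 5 were higher in colitic Tmem173fl/fl mice: the channel subunits Lrrc8c (log2 change 1.35) and Lrrc8a (0.99), the importer Slc19a1 (0.93), Slc46a3 (0.85) and the exporter Abcc1 (0.77). Slc46a1 was lower (-1.66), and the list's median was 0.59. In Tmem173iΔmye mice 0 of these 10 were called (median 0.26). There colitic mouse 5 had 65.7 CPM of Slc46a1, against 10.2 and 4.85 CPM in mice 1 and 2. Of 22 genes of STING traffic and turnover 3 were higher, led by Rhbdf2, the gene of iRHOM2, which stabilizes STING (0.97), and 6 lower, among them Usp18, a protease of ISG15 and itself interferon-stimulated (-2.64), and Rnf5, a ubiquitin ligase that marks STING for degradation (-0.95). The lower count was 3 without colitic Tmem173fl/fl mouse 1. With the acinar covariate Usp18, Slc46a1 and Zbp1 were not called (edgeR adjusted p of 0.118, 0.0542 and 0.0593).

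Around the kinases 2 of 10 genes were higher, Tbkbp1, an adaptor of TBK1 (log2 change 2.13), and Sqstm1 (0.91). The 6 that were lower included the RNA sensors Ifih1 (-1.84) and Ddx58 (-1.44), which use the same kinase, and their adaptor Mavs (-0.92). Among other interferon regulatory factors Irf5 was higher (1.33) and Irf7 (-2.74), Irf1 (-1.30) and Irf9 (-1.18) were lower, while Irf3 itself stood at -0.20. Of these, Irf7 was called in Tmem173iΔmye mice (-1.56), and it was not called when any 1 of the 3 untreated mice was left out (-1.67 to -1.44). With the acinar covariate the call of Irf5 was lost (edgeR adjusted p = 0.0720).

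IRF3 target genes were lower in colitis in both genotypes. All 8 tested were called lower in Tmem173fl/fl mice, where 16% of all genes were, and their median log2 change was -2.78. In Tmem173iΔmye mice 6 of 8 were called lower, where 0.639% of all genes were, and the median was -1.40. With the acinar covariate 5 of 8 were called in Tmem173fl/fl mice. In Tmem173iΔmye mice 2 or 3 of 8 were called without any 1 of the untreated mice or colitic mouse 1, and 4 without colitic mouse 2 or without the libraries with Xist reads. Ifnb1 did not pass the filter on low values. Ifit1, whose protein binds viral RNA and whose promoter is shown above, was 381, 198 and 170 CPM in untreated Tmem173fl/fl mice and 17.9, 30.7 and 15.2 CPM in colitic ones. It fell by 3.48 on the log2 scale (SE 0.36, edgeR adjusted p = 6.55e-05). In Tmem173iΔmye mice it was 171, 268 and 158 CPM untreated and 54.2, 64.2 and 49.0 CPM colitic, a fall of 1.84 (SE 0.25, adjusted p = 0.00651). Isg15, a ubiquitin-like modifier, fell by 3.53 in Tmem173fl/fl mice and by 2.59 in Tmem173iΔmye mice. Markers of epithelium were lower in the same colitic Tmem173fl/fl libraries (6 of 9 called lower and 1, Car1, higher by 1.63), and their part was not tested.

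**Figure D4:**
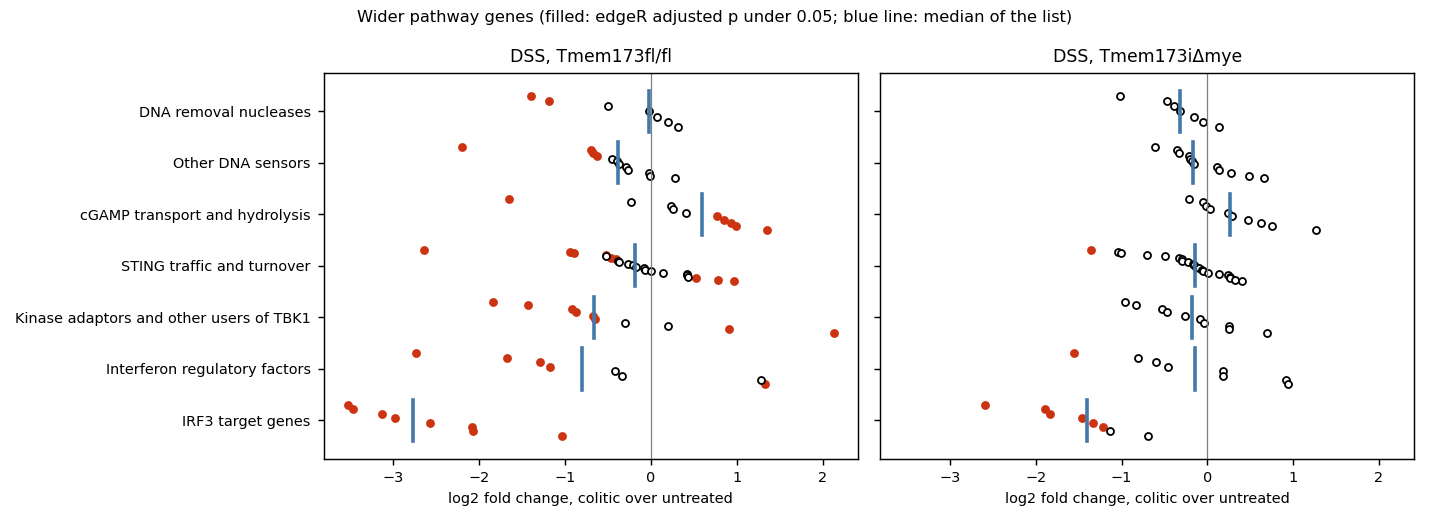
Change with DSS (log2 fold change) of the 77 tested genes of the wider pathway, by list, in Tmem173fl/fl mice (left) and Tmem173iΔmye mice (right), with filled points for an edgeR adjusted p under 0.05 and a line at each list's median. The IRF3 target genes lie farthest to the left, with medians of -2.78 and -1.40, and genes of cGAMP transport and hydrolysis lie mostly to the right in Tmem173fl/fl mice (median 0.59).

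Between genotypes in colitis 2 of the 77 wider pathway genes were called, both higher in Tmem173iΔmye mice, against 0.954% of all genes called higher. These were Ifit1, by 1.38 (SE 0.28, edgeR adjusted p = 0.0381), and Ifih1, the gene of the RNA sensor MDA5, by 1.24 (SE 0.22, adjusted p = 0.0294). Ifih1 was 56.1, 75.2 and 64.1 CPM in colitic Tmem173fl/fl mice and 163, 188 and 113 CPM in colitic Tmem173iΔmye mice, which do not overlap. It was also the single gene of the 77 called in the interaction, by 1.39 (SE 0.29, adjusted p = 0.0237, against 2.65% of all genes). Both calls were lost when any 1 of several libraries was left out, at differences of similar size. Between colitic genotypes Ifit1 was not called without Tmem173fl/fl mouse 1 or 3 or Tmem173iΔmye mouse 2 or 5 (log2 differences 1.202 to 1.46) or with the acinar covariate (1.49, edgeR adjusted p = 0.0576), nor Ifih1 without Tmem173fl/fl mouse 1, 2 or 3 or Tmem173iΔmye mouse 2 (1.09 to 1.36). The interaction of Ifih1 was not called without any 1 of 5 libraries (1.22 to 1.35), which are mouse 1 of both Tmem173fl/fl groups, untreated Tmem173iΔmye mice 1 and 3 and colitic Tmem173iΔmye mouse 2. The limma test on FPKM called neither gene between genotypes. In untreated mice 0 of the 77 were called between genotypes. Irf7, at a difference of 1.06 between colitic genotypes, was not called (adjusted p = 0.139).

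**Figure D5:**
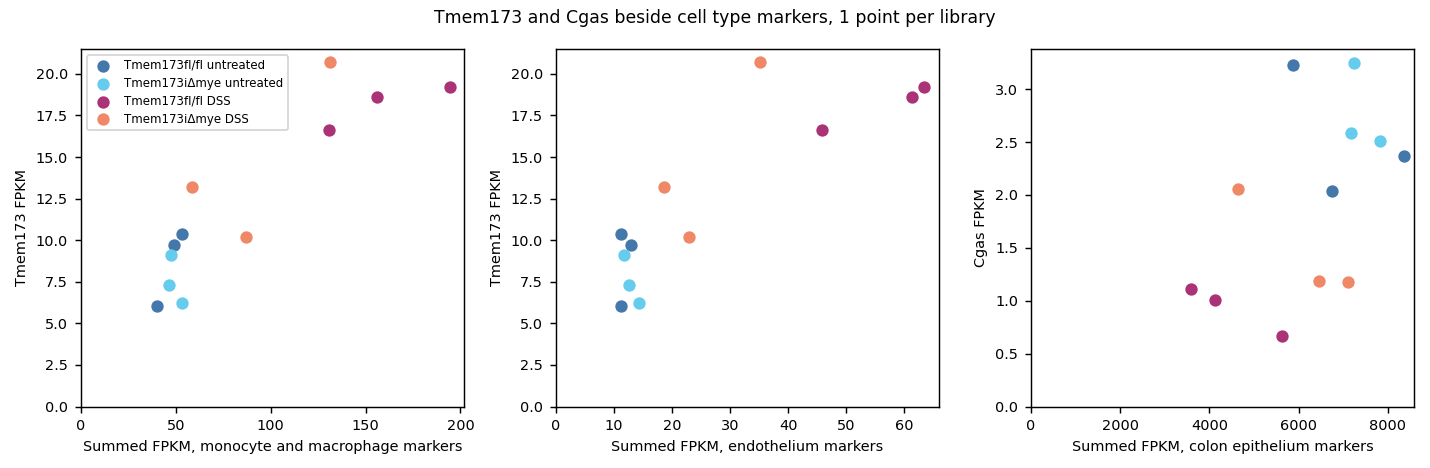
Tmem173 level (FPKM) beside the summed FPKM of monocyte and macrophage markers (left) and of endothelial markers (middle), and Cgas level beside that of colon epithelium markers (right), 1 point per library, colored by group, axes from 0. Libraries with over 130 FPKM of monocyte and macrophage markers have 16.6 to 20.7 FPKM of Tmem173, and the colitic Tmem173fl/fl libraries have the lowest Cgas, 0.670 to 1.11 FPKM.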

How the data were processed

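Whole colon RNA of 12 mice was sequenced from polyA libraries. The authors deposited whole-number counts and FPKM per gene and library, per the file headers. Submitters' processing notes name CASAVA 1.8, fastp, HISAT2 2.0.5, featureCounts 1.5.0-p3, DESeq2 1.20.0 and GRCm38 (mm10). The deposited FPKM equal counts over gene length and library total times 1 constant per library (0.892 to 1.044), within 1% for 100% of genes. The table also holds the authors' group means, fold changes and p-values, which were not used.

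Groups came from sample titles. Tests covered the 24102 genes that reached 0.1 FPKM in 3 or more libraries, run in R 4.3.3 with edgeR 4.0.16 (TMM, glmQLFit, glmQLFTest) on counts, fitting only the groups compared, or all 12 libraries for the interaction. SE is the log2 change over the square root of F. Alternatives were RLE factors, DESeq2 1.42.0, limma 3.58.1 on log2(FPKM + 0.1) and log2(FPKM + 1), other filters, 1 fit of all groups, a 2-fold rule, a replicate block and leaving out each library. Leaving out libraries with Xist reads, an acinar covariate and the GENCODE length of Tmem173 were chosen after seeing the data. Scripts were tested on simulated data.

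The members and gene lists were chosen with earlier results of these data known. Named genes are all members, Lyz2, up to 3 called genes per list and comparison (largest change, mean FPKM of at least 1, no overlap), and the 3 genes most like each member. Genes named beyond this rule complete the count of their list, and 1 gene that the rule gives is not reported here. P-values measure the spread between mice sampled.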

Additional observations from a re-analysis of the deposited data

Results flagged for a closer look

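No member of the pathway was called different between genotypes in its response to DSS, by the interaction test (adjusted p from 0.503 to 0.968) or by opposite moves of every library. Among the other genes that the text or its rule names, the edgeR interaction of genotype and DSS was called for 9, and 2.65% of all genes were called. The rule names genes because they were called, so this count is partly set by their choice. Ifih1 had an interaction of 1.39 (log2), so that its change with DSS was less negative in Tmem173iΔmye mice. The epithelial genes Slc26a3, a chloride exchanger, and Cdh1, E-cadherin, had interactions of 1.86 and 1.204. The macrophage genes Mrc1 and Itgam had -2.08 and -1.31. The fibroblast genes Dcn, Col1a1 and Col1a2 had -1.91, -1.72 and -1.36, and the endothelial gene Cdh5 had -1.70. Over 12 fits that each left out 1 library, the calls of Mrc1 and Dcn held, and they also held with the acinar covariate and without the libraries with Xist reads. The call was lost in 2 of the 12 fits for Cdh5, 5 for Ifih1, 6 for Col1a2, 8 for Col1a1, 9 for Slc26a3 and for Cdh1 and 10 for Itgam, with no change of sign. With the acinar covariate and without the libraries with Xist reads the adjusted p was 0.0558 and 0.0630 for Slc26a3, 0.117 and 0.111 for Cdh1, 0.0762 and 0.221 for Col1a1, 0.0634 and 0.142 for Col1a2, and 0.0779 and 0.0585 for Itgam. For Cdh5 it was 0.0358 and 0.0586. No group had the 4 libraries needed to look for a single library that stands apart.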

How the results depend on the processing

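The count of members called with DSS in Tmem173fl/fl mice was 3 in the reported analysis and without any single library, 2 under the 2-fold rule and 1 with the acinar covariate (Cgas). In Tmem173iΔmye mice it was 0, against 1 with DESeq2, 2 with the replicate block and 0 to 1 when a library was left out (1 without colitic mouse 5). The counts between genotypes and in the interaction were 0 under every alternative run. Small differences that were not called changed sign, and the cause was not tested. Ddx41 with DSS in Tmem173iΔmye mice was -0.0045, against 0.0030 with RLE, 0.0026 with DESeq2, 0.0037 with edgeR's own filter, 0.00019 with limma on log2(FPKM + 1), 0.019 with the replicate block, 0.067 without the libraries with Xist reads and -0.14 to 0.11 leaving out a library, and the ratio of its mean FPKM was 1.01. With the acinar covariate Irf3 with DSS was 0.022 in Tmem173fl/fl mice, Ikbke -0.041 in Tmem173iΔmye mice, the genotype difference of Ddx41 in untreated mice 0.028 and the interaction of Tmem173 0.057. Without the libraries with Xist reads the genotype difference of Enpp1 was 0.070 in untreated mice, that of Irf3 -0.10 in colitic mice, and the interaction was -0.044 for Cgas and 0.057 for Tmem173. With the replicate block Irf3 was -0.15 between colitic genotypes and -0.015 in the interaction. Leaving out a library gave ranges that span 0 for Tbk1 (-0.44 to 0.057), Ikbke (-0.23 to 0.16) and Irf3 (-0.25 to 0.18) with DSS in Tmem173iΔmye mice. They did so in untreated mice between genotypes for Cgas (-0.0058 to 0.34), Ddx41 (-0.13 to 0.098), Tbk1 (-0.085 to 0.13), Ikbke (-0.17 to 0.033) and Enpp1 (-0.17 to 0.042), in colitic mice for Tbk1 (-0.070 to 0.40) and Irf3 (-0.10 to 0.36), and in the interaction for Tmem173 (-0.38 to 0.15), Tbk1 (-0.12 to 0.35) and Irf3 (-0.024 to 0.45).

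Same-numbered mice did not vary together (correlations of their deviations -0.12 to 0.13 over all comparisons), so the numbers are not taken to pair them. The replicate block moved the genes called from 522 to 1695 with DSS in Tmem173iΔmye mice and from 0 to 119 between untreated genotypes. DESeq2 called 1456 and limma on log2(FPKM + 0.1) 41 in the former. The share of called genes that were higher between colitic genotypes was 30.7%, against 44.0% with DESeq2, 43.9% with the block, 46.2% in 1 fit of all groups, 39.8% without the filter, 23.9% and 21.4% with limma at the lower and higher pseudocount, and 18.5% to 43.5% leaving out a library. The wider pathway genes called with DSS in Tmem173fl/fl mice were 42, and 22 under the 2-fold rule. In Tmem173iΔmye mice they were 8, and 1 with limma at either pseudocount. Between colitic genotypes they were 2, against 0 with limma at either pseudocount, 5 without the filter or with the block, 9 in 1 fit of all groups, 11 with DESeq2 and 0 to 10 leaving out a library. In the interaction they were 1, against 0 to 2 with limma, 3 with the block, 5 with DESeq2, 6 without the filter and 0 to 9 leaving out a library. Cgas, with 40 to 226 counts per library, was the member limited most by depth.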
